A study of Solanum lycopersicum and Solanum pimpinellifolium with 30 samples.

Results

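Landrace 557 is 1 of 9 Andean landraces of tomato (Solanum lycopersicum) whose ripe fruit were profiled on Affymetrix tomato arrays. Its 3 arrays, of 30 in the series, were set against the equally weighted mean of the other 8 landraces (3806, 3815, 3836 and 3842, and 549, 560, 571 and 572), each with 3 arrays. The wild accession LA1589 was left out of that mean. All landraces were grown in 1 field trial with no treatment, and red fruit were taken at maturity. The tissue was pericarp, the fleshy fruit wall, freed of outer skin, locule tissue and seeds. Per the labels each landrace was a single accession grown as 3 parcels of 6 plants, and its arrays are numbered as biological replicates. The comparison covered 10038 of the 10209 probe sets, since 171 Affymetrix and reporter controls were left out. Of the tested probe sets 743 carried a descriptive gene name, for 661 genes.

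Tomato fruit ripen under the control of ethylene, a gaseous hormone made from ACC by ACC synthases and ACC oxidases. Ethylene receptors and CTR kinases hold the response down until the hormone binds, and EIN3-like and ERF transcription factors carry the signal to target genes. Ripening pericarp softens as enzymes cut and rearrange cell wall polymers, and it builds up lycopene, sugars, acids and volatiles. Small heat shock proteins bind unfolding proteins in warm or stressed cells and are also known from ripening tomato fruit.

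The arrays of 557 stood apart from the rest before any gene was compared. Transcripts of bacterial genes, which are added as controls in the standard array preparation, averaged 10.37 ± 0.25 log2 units in 557, against landrace means of 8.29 to 10.28 in the others (deposited scale, n = 3 arrays each). Landrace 572 was next, with 10.28 ± 0.21. The share of probe sets above background, which was taken from probe sets for reporter genes foreign to tomato, was 40.2%, 52.2% and 53.1% in replicates 1, 2 and 3 of 557. In the other landraces the mean share was 58.2% in 572 and 72.0% in 3806, with the rest between them. Replicate 1 also had the highest background of the 27 landrace arrays, 2.41 log2 units, against 1.34 and 1.27 in replicates 2 and 3. The arrays of 557 correlated with one another at 0.931 on average, against 0.968 to 0.988 within the other landraces, and each had another array of 557 as its nearest single array. On average, however, replicates 2 and 3 correlated slightly better with the other landraces (0.941 and 0.944) than with their own (both 0.938), while replicate 1 did not (0.895 and 0.917). The actin signal ratio of 3′ to 5′ probe sets, a sign of RNA integrity, was 1.21 ± 0.38 log2 units in 557, within the landrace means of 0.99 to 1.76. The GAPDH ratio was 2.03 ± 0.19 in 557, near the top of the landrace means of 1.56 to 2.04. Replicate 1 had the highest ratios of the 3 arrays of 557, 1.64 for actin and 2.24 for GAPDH. The part of the spiked controls, the background and replicate 1 in the results below was not tested. Against 572 alone 22 of the 48 passing genes and probe sets named by rule lost their call or turned sign. Of these, 4 turned sign. A contrast with the 3 arrays of 572 has a larger error than 1 with 24 arrays, so a call can be lost at a similar difference. TSI-1, for example, lost its call but differed by 2.36 from the mean of the other landraces and by 2.19 from 572.

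**Figure D1:**
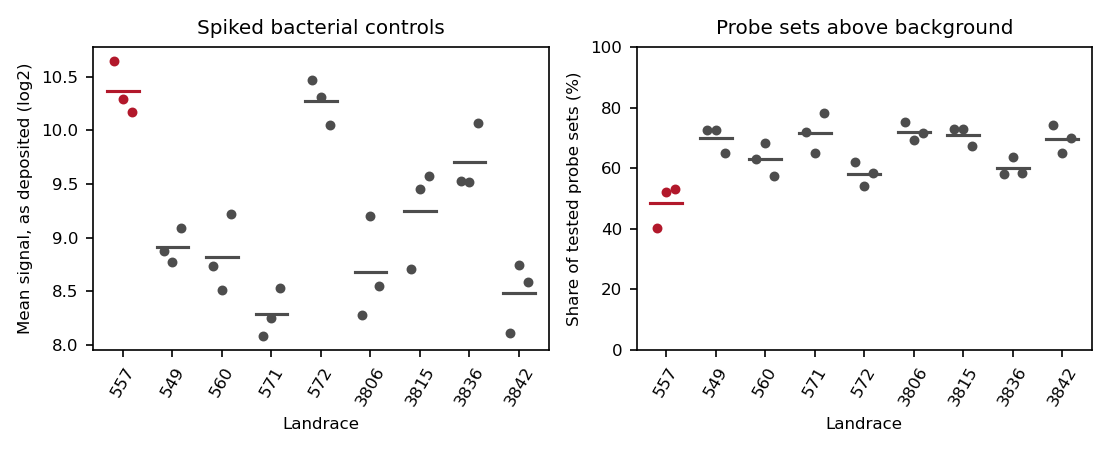
Mean deposited signal of the spiked bacterial controls (left, log2) and share of tested probe sets above the array's background (right, percent) for each array of 557 (red, left) and of the other 8 landraces (grey); lines are landrace means of 3 arrays. The arrays of 557 had the highest mean of the spiked controls, 10.37, and the lowest mean share above background, 48.5%.

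Across the 10038 probe sets, 1230 (12.3%) were higher and 1117 (11.1%) were lower in 557 than the mean of the other landraces, 2347 or 23.4% in all (limma, adjusted p under 0.05). The error of this test is the spread between arrays of the same landrace, taken as equal in all 9 landraces. The arrays of 557 agreed less with one another than those of any other landrace, so this error can be too small for 557. The standard errors given below with differences share this limit. With array weights, which count more variable arrays less, 295 probe sets passed. Changes of 2-fold or more were reached by 297 of the higher (2.96% of the probe sets) and 392 of the lower ones (3.91%). Among the 1230 higher probe sets, 476 lay at background in 557 itself, so that 754 higher and 1109 lower were measured on their brighter side. Centring each array on its median moved the split to 2556 higher and 1302 lower. Without replicate 1 the count was 1292 or 12.9%, with 747 higher (7.44%) and 545 lower (5.43%), and 1042 of them were also among the 2347. When the spread between the 8 other landraces served as error, 542 passed, 434 of them higher. Landrace 557 had the highest mean of the 9 landraces at 2169 probe sets and the lowest at 1777. The same contrast made for landrace 560 called 2270 probe sets, and for 3842 it called 16.

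Set against single landraces, 557 differed most from 560, with 2244 probe sets (22.4%), and least from 572, with 1157 (11.5%). Against each of the 8 landraces in 1 direction 130 probe sets (1.3%) passed, 84 (0.837%) higher and 46 (0.458%) lower. That count was 108 without replicate 1 of 557, 313 without replicate 2 and 330 without replicate 3, and 27 with array weights. The 3 arrays of 557 lay beyond all 24 other arrays at 211 probe sets (2.1%), above them at 118 (1.18%) and below them at 93 (0.926%). With the mean of the spiked controls as a covariate, 0 probe sets passed against all 8 landraces in limma, while at unadjusted p under 0.05 there were 112 higher and 88 lower. The spiked controls were highest in 557, so the covariate and the landrace cannot be fully told apart. Among the 661 described genes 160 (24.2%) were called, 88 higher (13.3%) and 72 lower (10.9%), and 5 passed against all 8 landraces. Without replicate 1 of 557, 86 described genes (13.0%) were called.

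**Figure D2:**
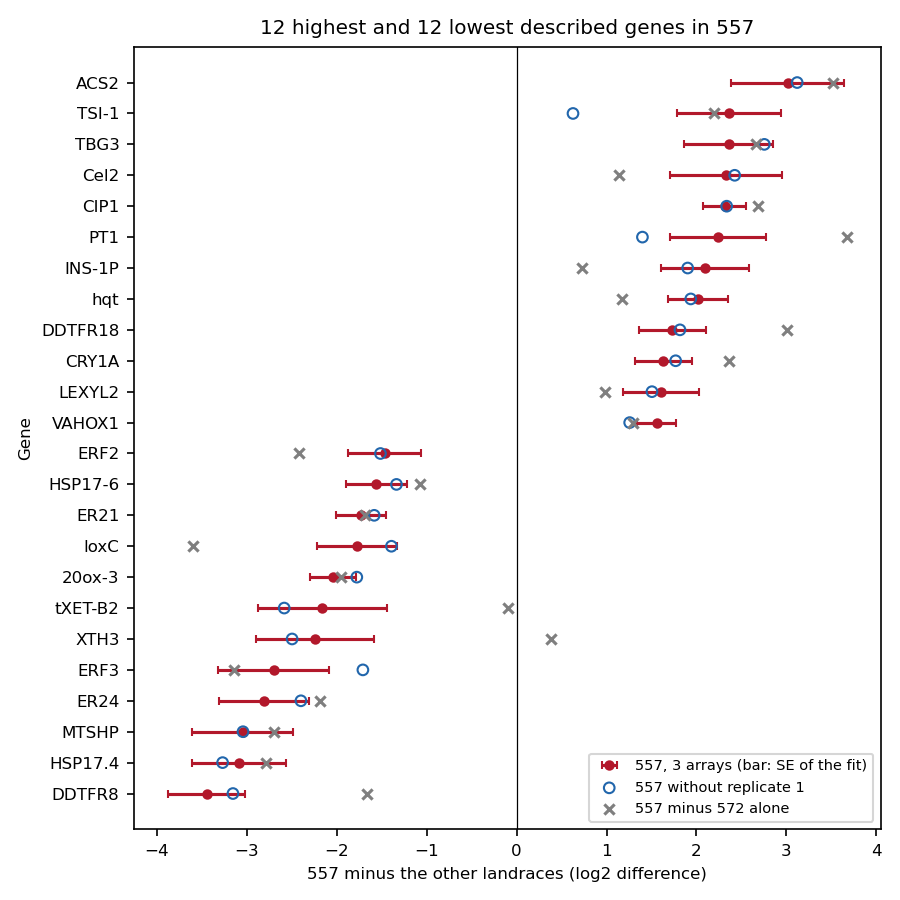
Difference between 557 and the other landraces (log2) for the 12 described genes with the highest and the 12 with the lowest passing differences; red points are the fit with all 3 arrays of 557 and bars its standard error, open circles leave out replicate 1 of 557, and crosses set 557 against 572 alone. ACS2 had the highest difference, 3.01, and DDTFR8 the lowest, -3.45; without replicate 1, TSI-1 moved to 0.63 and ERF3 to -1.71.

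Those 5 genes passed the test against every single landrace. The gene 20ox-3, a gibberellin 20-oxidase of gibberellin synthesis, had signals of 1.41, 2.04 and 2.39 log2 units in 557, against a low of 2.84, a median of 3.93 and a high of 4.97 over the 24 other arrays. No array of 557 reached any other array, and the difference was -2.04 ± 0.25 (SE, adjusted p = 1.57e-05), a level 4.13-fold lower in 557. Replicate 1 lay at background for this gene, and without it the difference was -1.78 (adjusted p = 0.000467). VAHOX1, a homeobox transcription factor, ran the other way, with 3.51, 2.77 and 2.45 in 557 and 0.75, 1.34 and 2.10 as the low, median and high of the others. Its arrays did not overlap either, and the difference was 1.56 ± 0.21 (adjusted p = 4.75e-05), with 560 the nearest landrace at 0.91 below 557. With every array raised to the highest array background, 2.41, the VAHOX1 difference was 0.50 (limma, adjusted p = 0.0069). The gene cdc2A-2, a cyclin-dependent kinase of the cell cycle, was lower, with 2.61, 2.86 and 4.03 in 557 against 3.80, 4.42 and 4.95 in the others. Here replicate 3 of 557 overlapped 2 arrays of the others, and the difference was -1.23 ± 0.20 (adjusted p = 0.000241). The remaining 2, gts1 and ARPI, lay at background in all 8 other landraces and on at least 1 array of 557. With only the other landraces raised to background, the folds were 1.73 for gts1 and 1.61 for ARPI. These are no lower bounds, since 557 itself lay partly at background. With every array raised to the highest array background, the differences were 0.017 for gts1 and 0 for ARPI.

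Heat shock genes gave the lowest median difference of the 17 gene lists, -1.18 log2 units over 9 genes, against 0.01 over all probe sets and 0.05 over the described genes. Of the 9 genes 4 fell and 0 rose, and 5 did not pass, beside 10.9% of described genes lower and 13.3% higher. Without replicate 1, 3 fell. HSP17.4, a small heat shock protein gene, had signals of 5.10, 3.81 and 5.30 in 557, against a low of 4.54, a median of 7.99 and a high of 9.98 in the other landraces. Only 2 of the 24 other arrays lay within the range of 557, and both belonged to 560. The difference was -3.09 ± 0.52 (adjusted p = 0.00032), an 8.49-fold lower level.

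MTSHP, a small heat shock protein of mitochondria, had 4.10, 3.74 and 4.48 in 557 and 3.24, 7.23 and 9.56 as the low, median and high of the others, a difference of -3.04 ± 0.56 (adjusted p = 0.000729). Both genes kept their difference without replicate 1 (-3.27 for HSP17.4 and -3.04 for MTSHP) and against 572 alone (-2.79 and -2.69, adjusted p = 0.0111 and 0.022). Both were lower in 557 than in 7 of the 8 landraces, and the one left was 560, whose means were 5.28 for HSP17.4 (adjusted p = 0.629 against 557) and 3.77 for MTSHP (0.788). HSP17-6, a further small heat shock protein gene, was high everywhere, with 7.76, 8.02 and 8.86 in 557 against 8.80, 9.70 and 11.19 in the others. Replicates 1 and 2 of 557 lay under all other arrays, and the difference was -1.56 ± 0.34 (adjusted p = 0.00264), but against 572 alone HSP17-6 did not pass (-1.07, adjusted p = 0.132). Hsp90-1, for a heat shock protein of the chaperone class HSP90, passed closely, at -0.81 (adjusted p = 0.048, and 0.0627 without replicate 1).

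The differences of the 5 heat shock genes that did not pass ran between -1.48 and 0.59. HSP21, a chloroplast small heat shock protein, differed by -1.18 (adjusted p = 0.163), ER-SHSP, of the endoplasmic reticulum, by -1.48 (0.182) and vis1, a small heat shock protein gene known in tomato for juice viscosity, by -0.75 (0.268). The level of vis1 was 7.11 in 557, above the 6.97 of 560 and the 4.11 of 572 and below the other landrace means. TFHS1 differed by 0.59 and HSC80, for a constitutive HSP90, by -0.05 (8.04 in 557 and 8.10 in the others).

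**Figure D3:**
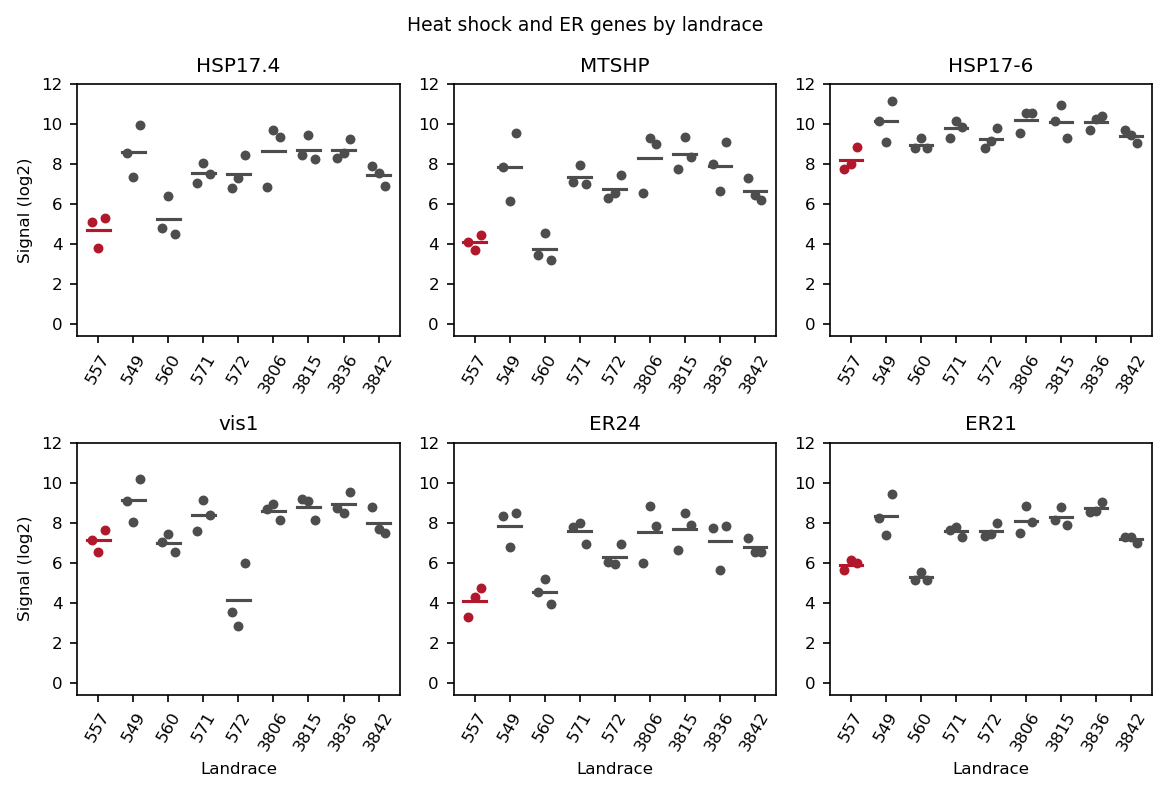
Signal (log2, quantile normalised) of 4 heat shock genes and of ER24 and ER21 on each array, with 557 in red at the left and the other 8 landraces in grey; lines are means of 3 arrays. For HSP17.4, MTSHP, ER24 and ER21 the means of 557 and 560 lie together below the other 7 landraces, while vis1 is lowest in 572.

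Of 50 genes of ethylene synthesis and signalling 11 rose and 8 fell, 38% in all beside 24.2% of the described genes, with a median difference of -0.02. Without replicate 1 the counts were 7 and 4. Of the 11 that rose, 3 (ACS3, EREB and TCTR1v) lay at background in 557. In synthesis, ACS2, an ACC synthase of ripening fruit, had the highest difference of any described gene. Its signals were 7.39, 8.09 and 7.32 in 557, against a low of 1.30, a median of 4.41 and a high of 7.89 in the others. Just 2 of the 24 other arrays entered the range of 557. The difference was 3.01 ± 0.63 (adjusted p = 0.00204), an 8.07-fold higher level, and without replicate 1 it was 3.12. ACS2 was higher than in 5 of the 8 landraces, and 560 came closest, with a mean of 6.87 against 7.60 in 557 (adjusted p = 0.583).

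Signalling genes moved in both directions. The ones named in this paragraph, other than ERF2, ERF3, ER24 and ER21, were picked after their values were seen. Among the receptors, ETR4 was higher in 557 by 1.08 ± 0.35 (adjusted p = 0.0277), while ETR2 was lower by 1.36 on the log2 scale (-1.36 ± 0.25, adjusted p = 0.000629). ETR1 differed by -0.99 with all arrays (adjusted p = 0.0257) and by -0.24 without replicate 1 (0.566), the array on which it lay at background. CTR3, a kinase of the CTR family, had 3.59, 3.40 and 2.99 in 557, against 1.13, 2.09 and 2.96 as the low, median and high of the others. The arrays did not overlap, and the difference was 1.26 ± 0.23 (adjusted p = 0.000803). The EIN3-like factors EIL4 and EIL3 were higher, EIL4 with 7.95, 7.86 and 7.06 in 557 against 5.31, 5.97 and 7.30 in the others (1.55 ± 0.25, adjusted p = 0.000212). EIL3 differed by 0.72 ± 0.19 (adjusted p = 0.00973). Against 572 alone, CTR3, EIL4, EIL3 and ETR4 no longer passed, at 0.85, 0.54, 0.24 and 0.60, with adjusted p between 0.083 and 0.6.

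ERF2, ERF3 and the ethylene-responsive transcripts ER24 and ER21 were lower. ERF2 had 5.43, 5.68 and 4.91 in 557 against 3.40, 6.85 and 8.47 in the others, a difference of -1.47 ± 0.41 (adjusted p = 0.0136), but without replicate 1 or replicate 3 its adjusted p was 0.0514 and 0.0722. ERF3 had -0.03, 3.66 and 2.24 in 557 against 2.17, 4.72 and 6.73, and its difference of -2.70 was -1.71 without replicate 1 (adjusted p = 0.0856), the lowest of the 3. Replicate 1 lay at background for ERF3, and with that array raised to its background the difference was -1.89. A second ERF3 probe set lay at background throughout. ER24 had 3.27, 4.28 and 4.74 in 557 against 3.92, 6.92 and 8.83 in the others (-2.81 ± 0.50, adjusted p = 0.000545). ER21 had 5.60, 6.12 and 5.96 in 557 against 5.11, 7.69 and 9.42 (-1.73 ± 0.28, adjusted p = 0.000246), while a second ER21 probe set differed by 0.21 and did not pass. As with HSP17.4 and MTSHP, both were lower than in 7 landraces and did not differ detectably from 560 (-0.44 for ER24, adjusted p = 0.693, and 0.64 for ER21, 0.24). The ripening gene E8 did not pass, with 8.47 in 557 and 8.18 in the others (0.29, adjusted p = 0.681).

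**Figure D4:**
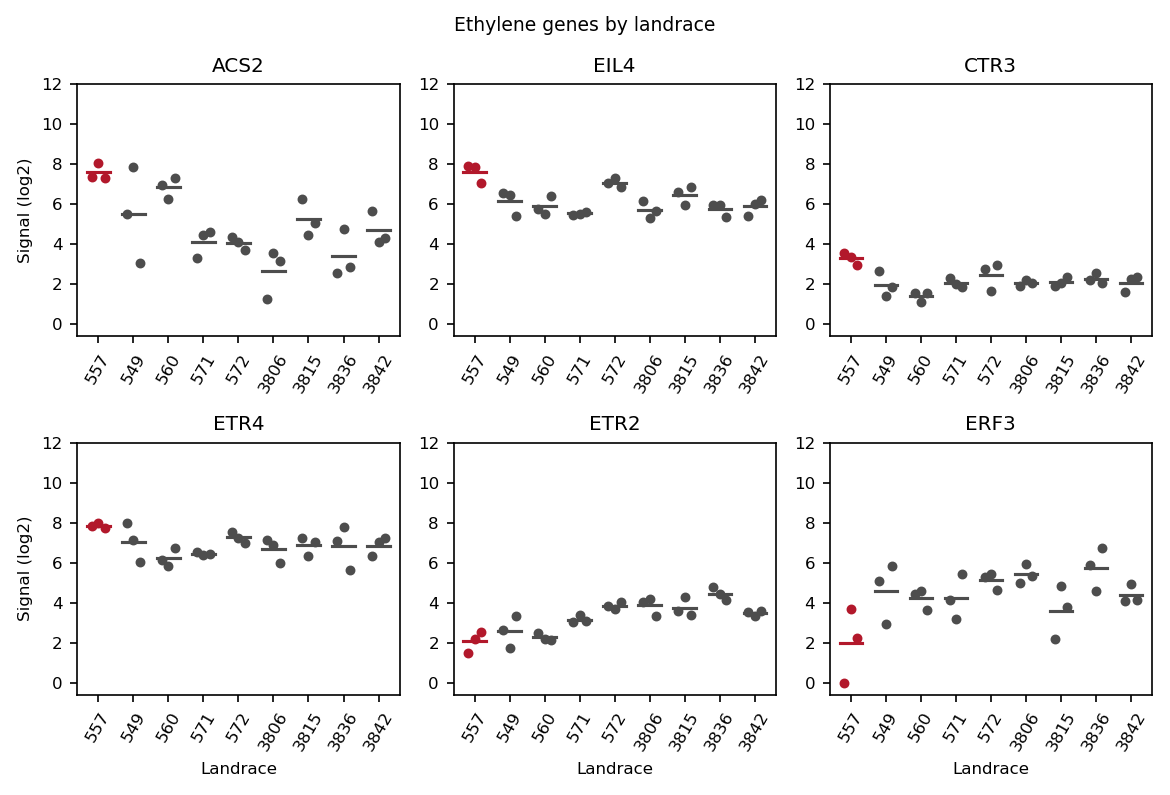
Signal (log2, quantile normalised) of 6 ethylene genes on each array, with 557 in red at the left and the other 8 landraces in grey; lines are means of 3 arrays. The means of ACS2, EIL4, CTR3 and ETR4 are highest in 557 and those of ETR2 and ERF3 lowest. For ERF3 the lowest point is replicate 1 of 557, at -0.03, which is below that array's background.

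Among 9 ripening and floral regulators 0 rose and 1 fell, 11.1% beside 24.2% of the described genes. TDR4, a MADS-box regulator of ripening, was level, with 7.86, 7.78 and 8.02 in 557 against 7.29, 7.98 and 8.43 in the others (-0.02, adjusted p = 0.932). TDR6, the one that passed, lay at background on all 3 arrays of 557, and its adjusted p was 0.0635 without replicate 3.

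Of 46 cell wall genes 4 were higher and 5 lower (median difference 0.09), and 2 higher and 3 lower without replicate 1. Among the 4 higher genes, 1 lay at background in 557. The share called, 19.6%, was under the 24.2% of all described genes. TBG3, a beta-galactosidase that trims galactan side chains, had 5.73, 6.93 and 6.89 in 557 against 1.65, 3.81 and 6.47 in the others. Replicates 2 and 3 lay above every other array, and the difference was 2.36 ± 0.50 (adjusted p = 0.00209), or 5.14-fold. TBG3 passed against 4 single landraces, and 560 was nearest at 5.46. Cel2, an endo-1,4-beta-glucanase, had 8.64, 8.55 and 9.29 in 557 against 3.05, 6.74 and 8.75 in the others, with 1 array of the others inside the range of 557. Its difference was 2.33 ± 0.62 (adjusted p = 0.0103), while against 572 alone it was 1.14 (adjusted p = 0.405). LEXYL2, a beta-xylosidase, differed by 1.60 ± 0.42 (adjusted p = 0.0092, and 0.0572 without replicate 1) and by 0.98 against 572 alone (0.276), and its mean in 3815, 3.18, was close to the 3.24 of 557.

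The lower cell wall genes included both passing xyloglucan endotransglucosylases, which cut and rejoin xyloglucan chains. XTH3 had 3.30, 3.28 and 1.78 in 557 against 1.21, 4.83 and 8.04 in the others, a difference of -2.24 ± 0.65 (adjusted p = 0.0171). It did not pass without replicate 3 (-1.73, adjusted p = 0.112), and 572 was lower still, with a mean of 2.40 against 2.79 in 557. The level of tXET-B2 was at least 3.47-fold lower in 557, where 2 of 3 arrays lay at background (-2.16 ± 0.72, adjusted p = 0.0331). The call for tXET-B2 was lost without any 1 of the 3 replicates of 557 (adjusted p = 0.0524, 0.0639 and 0.185) and without landrace 3806 (0.11), where its mean was 6.74, and against 572 alone the difference was -0.10 (0.961). Cel3, a membrane-bound endoglucanase picked after its values were seen, differed by -1.33 ± 0.24 (3.88 in 557 and 5.21 in the others, adjusted p = 0.000521). PG2, the main polygalacturonase of ripe tomato, did not pass, with 9.26, 8.71 and 8.02 in 557 against 7.43, 9.85 and 10.77 in the others (-0.86, adjusted p = 0.21).

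The phenylpropanoid list had 6 genes, of which 3 rose and 0 fell (50% called, beside 24.2% of the described genes). The counts were 1 and 0 without replicate 1, beside 13.0% of the described genes called. Among the 3 that rose, 2 lay at background in 557. The one measured above background was hqt, hydroxycinnamoyl transferase of chlorogenic acid synthesis, with 8.55, 8.30 and 8.31 in 557 against 4.25, 6.51 and 7.86 in the others. No other array reached 557, and the difference was 2.02 ± 0.34 (adjusted p = 0.000296), or 4.05-fold. It passed against 6 single landraces, and 572 was next, 1.17 below 557 (adjusted p = 0.0963). DHQS, a gene of the shikimate pathway that feeds phenylpropanoids and outside the gene lists, was also free of overlap, with 6.55, 6.75 and 6.92 in 557 against 5.16, 5.75 and 6.45 in the others. Its difference was 0.99 ± 0.17 (adjusted p = 0.000431), and DHQS was picked after its values were seen. CHS1, a chalcone synthase of flavonoid synthesis, was above background only on replicate 1 of 557 (2.53, against 0.86 and 0.46), and CHS2 did not pass (0.29).

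**Figure D5:**
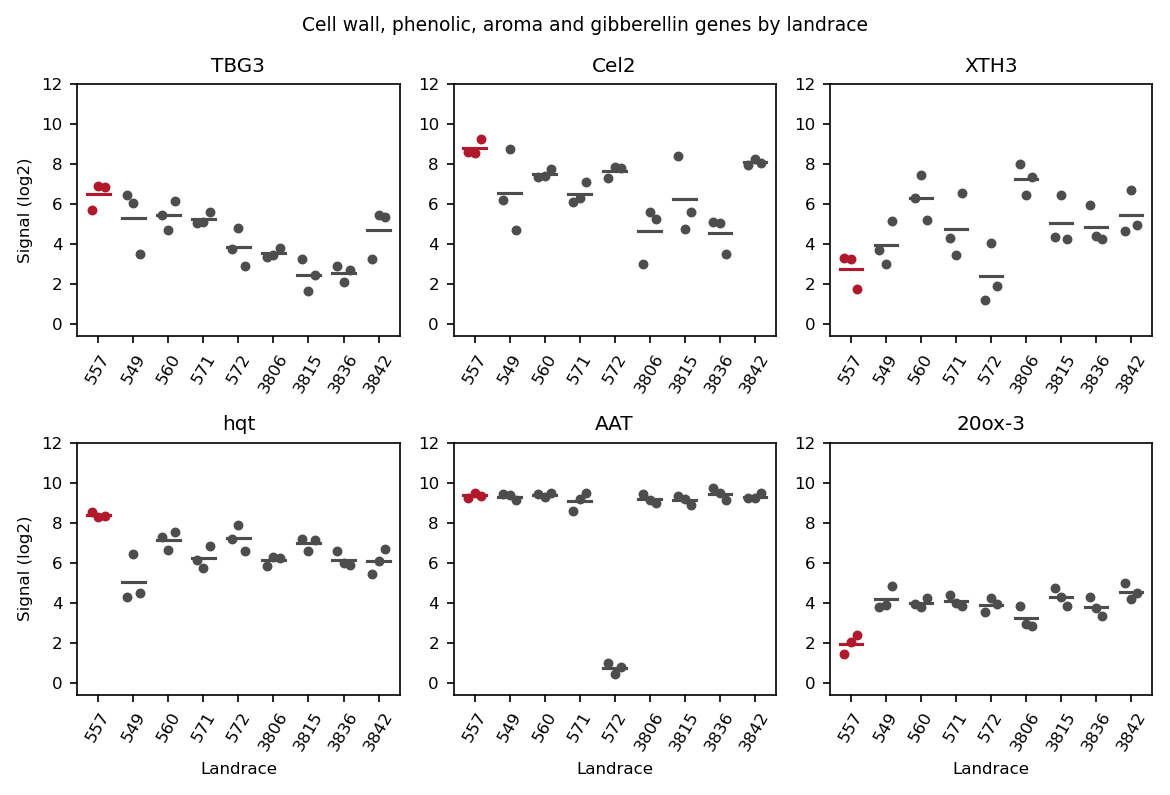
Signal (log2, quantile normalised) of 6 genes on each array, with 557 in red at the left and the other 8 landraces in grey; lines are means of 3 arrays. The arrays of 557 lie above all others for hqt and below all others for 20ox-3, XTH3 is lowest in 572, and AAT is at background in 572 alone.

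Of 12 aroma genes 4 rose and 3 fell (58.3% in all, median difference 0.35), beside 24.2% of the described genes called in either direction. Among the 4 that rose, 1 lay at background in 557. Without replicate 1 the counts were 3 and 0. The gene loxC, a lipoxygenase on the route to short-chain volatiles, had 2.29, 2.45 and 4.44 in 557 against a low of 2.30 and a high of 6.83 in the others (-1.78 ± 0.44, adjusted p = 0.00699). It did not pass without replicate 1 (-1.39, adjusted p = 0.0832) or without replicate 2 (-1.47, 0.0512). Replicate 1 of 557 lay at background for loxC. Fad7, a fatty acid desaturase, had 3.13, 2.45 and 4.59 in 557 against 0.45, 1.39 and 5.18 in the others, a difference of 1.46 (adjusted p = 0.00406) that was 0.86 without replicate 3 (adjusted p = 0.0702). AAT, an alcohol acyltransferase of ester synthesis, passed by way of 572. Its signals were 9.23, 9.50 and 9.35 in 557, the landrace means other than 572 ran between 9.09 and 9.44, and 572 had 0.74. HPL, a hydroperoxide lyase, did not pass (0.31, adjusted p = 0.598), and AAT was picked after its values were seen.

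Of 17 carotenoid genes 2 rose and 1 fell (17.6%, beside 24.2% of the described genes, median difference 0.20), and 0 rose and 1 fell without replicate 1. DXR, of the plastid isoprenoid route, differed by 0.98 ± 0.30 (5.19 in 557 and 4.21 in the others, adjusted p = 0.0214) and by 0.77 without replicate 1 (0.157), and by 0.66 against 572 alone (0.308). PDS, phytoene desaturase, differed by -0.97 ± 0.28 (3.15 in 557 and 4.12 in the others, adjusted p = 0.0157), lost its call without replicate 2 or 3 (0.062 and 0.0631) and turned to 0.034 against 572 alone, where the mean was 3.12. Psy1, the phytoene synthase of fruit, had 8.74, 9.09 and 9.32 in 557 against 5.04, 9.34 and 10.16 in the others and did not pass (0.28, adjusted p = 0.462). A dimmer second probe set of Psy1 did pass, at 1.06 (adjusted p = 0.000723), so that the probe sets of this gene disagreed.

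Sugar and starch genes were 4 of 23 higher and 2 lower, 26.1% beside the 24.2% of all described genes, and 1 and 1 without replicate 1. Among the 4 higher genes, 1 lay at background in 557. FRK2, a fructokinase, differed by 1.05 ± 0.30 (6.32 in 557 and 5.26 in the others, adjusted p = 0.0141) and by 0.65 without replicate 1 (0.199). FRK2 was not highest in 557, since 572 had a mean of 6.47, and the difference from 572 alone was -0.16 (0.835). AGP-1, a symbol also used for an arabinogalactan protein, which is no sugar enzyme, differed by -1.45 ± 0.47 (adjusted p = 0.029) and lost its call without replicate 2, replicate 3 or landrace 3806 and against 572 alone (-0.85, 0.409). It was 1 of the 2 lower genes and the 1 lower gene without replicate 1 (-1.91, 0.0256). The lower counts of this list may therefore include a gene of another function. The acid invertase gene AI, which splits sucrose, did not pass (9.25 in 557 and 9.14 in the others, 0.11). Of 9 organic acid and GABA genes 3 rose and 1 fell (44.4%), and 0 passed without replicate 1 of 557. ME2, a malic enzyme, differed by 0.82 (adjusted p = 0.0437) and GABA-TP3, a GABA transaminase, by -1.03 (0.048), and both also lost their call without several single arrays of other landraces. Against 572 alone ME2 differed by 0.71 (0.251), and GABA-TP3 turned to 0.61 (0.46). Replicate 1 of 557 lay at background for GABA-TP3, and with that array raised to its background the difference was -0.58. ME1, a further malic enzyme, did not pass (0.32).

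Of 15 antioxidant genes 0 rose and 3 fell (20%, beside 24.2% of the described genes, median difference -0.16), and 2 fell without replicate 1. APX2, an ascorbate peroxidase, had 5.92, 5.15 and 5.34 in 557 against 5.69, 6.55 and 7.65 in the others. Replicates 2 and 3 lay under every other array, and the difference was -1.18 ± 0.21 (adjusted p = 0.000609), while a second APX2 probe set differed by -0.56 and did not pass (0.0969). GPXle-1, a glutathione peroxidase, was lower by a smaller step (7.37 in 557 and 8.02 in the others, -0.65 ± 0.14, adjusted p = 0.00305), and 572 had a mean of 7.43, with a difference of -0.06 from it alone (0.886). SODCC.1, a copper/zinc superoxide dismutase, did not pass (-0.27, adjusted p = 0.153).

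Hormone genes other than those of ethylene were 3 of 15 higher and 2 lower, 33.3% beside 24.2% of the described genes, and 1 of the 3 lay at background in 557. Without replicate 1 the balance turned to 1 higher and 3 lower. Beside 20ox-3, NCED1, the dioxygenase that commits carotenoids to abscisic acid, had 4.14, 3.86 and 3.70 in 557 against 0.63, 2.47 and 4.03 in the others (1.44 ± 0.37, adjusted p = 0.00803, and 0.057 without replicate 1). CYP85A1, of brassinosteroid synthesis, did not pass (-0.21). Of 14 cell division genes 0 rose and 2 fell (14.3%), and 1 fell without replicate 1. CycA3, an A-type cyclin, was the second beside cdc2A-2 (-0.91, adjusted p = 0.0237), and its call was lost without replicate 1 or 3 (0.249 and 0.225) and against 572 alone (-0.04, 0.96), while PCNA did not pass (0.46). Replicate 1 of 557 lay at background for CycA3, and with that array raised to its background the difference was -0.57. The sterol list had 0 passing genes of 4, with SlSSR1 at 0.10.

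Outside the lists, CIP1 had the smallest adjusted p of the genes named here. Its signals were 6.89, 6.76 and 7.17 in 557 against 2.84, 4.47 and 6.56 in the others, with no overlap, and the difference was 2.31 ± 0.24 (adjusted p = 2.38e-06). A second CIP1 probe set lay at background in 557, and the mean of 560, 6.54, was not detectably below 557 (adjusted p = 0.391). CRY1A, a cryptochrome blue-light receptor, had 4.90, 5.37 and 5.24 in 557 against 2.09, 3.59 and 4.57 in the others. These arrays did not overlap, and the difference was 1.63 ± 0.32 (adjusted p = 0.00123). PT1, a phosphate transporter, had 6.58, 4.36 and 3.77 in 557 against 0.98, 2.48 and 4.61 in the others, and its difference of 2.24 was 1.40 without replicate 1 (adjusted p = 0.105). INS-1P was higher by 2.09 ± 0.49 (adjusted p = 0.00417), but against 572 alone, by 0.73 (0.509), with means of 4.94 in 557 and 4.21 in 572. DDTFR18 was higher by 1.73 ± 0.37, and DDTFR8 had the lowest difference of any described gene. DDTFR8 had 2.16, 1.91 and 4.16 in 557 against 3.04, 6.33 and 8.23 in the others (-3.45 ± 0.43, adjusted p = 1.52e-05), and it was -1.66 against 572 alone (0.0618). Replicate 1 lay at background for DDTFR8, and with that array raised to its background the difference was -3.36.

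The 2 highest differences among probe sets without a gene name exceeded that of ACS2. Les.1205.1.A1_at had 6.07, 7.24 and 7.24 in 557 against a low of 0.41, a median of 1.08 and a high of 7.26 in the others (4.73 ± 0.53, adjusted p = 5.14e-06). It was as bright in 571, with a mean of 6.99, and passed against the other 7 landraces. Les.582.1.A1_at passed against all 8 landraces, with 6.08, 5.72 and 5.98 in 557 and no other array above 4.03 (3.90 ± 0.44, adjusted p = 5.58e-06). LesAffx.22830.1.S1_at and LesAffx.69210.1.S1_at were at background on most arrays of 557 and at least 4.21-fold and at least 3.62-fold lower there, the first without passing against 572 alone (-1.34, adjusted p = 0.265).

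Replicate 1 of 557 was far brighter than every other array for a set of genes. At 52 probe sets it stood at least 2 log2 units above all 26 other landrace arrays, against 0 to 4 probe sets for each of those 26 arrays. Described genes made up 11 of the 52, and they include the pathogenesis-related genes CHI3 (a chitinase), PR-P2 and TSI-1, the viroid-induced gene cevi19 and WRKYIId-4, a WRKY transcription factor. CHI3 had 6.54, 0.28 and 0.09 in replicates 1, 2 and 3 of 557, against a low of 0.38 and a high of 4.35 in the others. PR-P2 had 7.02, 0.43 and 0.31 in 557, against 0.01, 1.34 and 5.01. TSI-1 had 6.19, 0.43 and 1.53 in 557, and no other array exceeded 0.94. Replicates 2 and 3 of 557 lay at background for CHI3 and PR-P2, and of the 3 arrays replicate 2 alone did for TSI-1.

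Of these 52 probe sets 27 were called with all arrays and 4 without replicate 1. Over all tested probe sets the shares called were 23.4% and 12.9%. The 52 were chosen by their level on replicate 1, so a loss of calls without replicate 1 is built into the choice. The defence and wound list, 24 genes with 3 higher and 0 lower, read 1 and 0 without it, beside 24.2% of the described genes called with all arrays. TSI-1 differed by 2.36 with all arrays (adjusted p = 0.00601) and still passed without replicate 1 at 0.63 (0.0287), though not against 572 alone (2.19, 0.0693). The gene cevi19 differed by 1.28 (0.0319) and, without replicate 1, by 0.01 (0.961). NP24-I, an osmotin-like protein, did not pass (0.69, adjusted p = 0.387). The genes of this paragraph and the one before, other than TSI-1, cevi19 and NP24-I, were picked after their values were seen.

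Genes listed for removed tissues (epidermis and seed) and for green tissue, which was not removed, were also read. LE16, a lipid transfer protein of the epidermis, had 3.99, 0.53 and 0.59 in 557 and no more than 0.71 elsewhere, and it too was among the 52 probe sets. Its difference of 1.37 (adjusted p = 0.0139) was 0.22 without replicate 1 (0.299). The summed linear signal of the 3 epidermis genes was 4.40 to 19.1 in 557 against 3.37 to 4.95 in the others, and LE16, ltpg1 and TSW12 were all at background in 2 or 3 arrays of 557. The 2 seed genes summed to 87.6 to 181 in 557 against 62.0 to 263 in the others, with TAS14 at background and LEA14 not passing (-0.21). This sum therefore rests on LEA14, which was bright in every landrace (6.88 in 557, and 6.32 as the lowest mean of the others, in 572). It cannot tell whether seed tissue was left in a sample. The 9 photosynthesis genes summed to 415 to 797 in 557 against 167 to 1778 in the others, and 2 fell (22.2%, beside 24.2% of the described genes). PSBR, of photosystem II, differed by -0.77 (adjusted p = 0.0317, 0.139 without replicate 1 and 0.165 without replicate 2, and -0.34 against 572 alone, 0.564) and PsbQ lay at background in 557, while PSBP did not pass (0.05). The part of these tissues in the differences was not tested, and in bulk pericarp fewer cells of a type and less RNA per cell cannot be told apart.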

How the data were processed

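Per the labels, total RNA of fruit pericarp was extracted with Trizol, labelled with biotin and hybridised to 1-colour arrays. The deposited values were log2 signals, from -0.42 to 12.55, processed by the authors. Their software and normalisation are not given in the sources used here. As base of the logarithm 2 was taken because the 27 spiked probe sets stepped with a median slope of 0.848 (0.461 to 1.05) against the log2 of their standard amounts. Array medians differed by up to 0.50, and all 30 arrays were quantile normalised. Background was percentile 95 of the 63 reporter probe sets of an array. Except for gts1 and ARPI, a fold against a side at background is given as a bound.

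The 27 landrace arrays were fitted with limma 3.58.1 in R 4.3.3, with 1 mean per landrace and 18 residual degrees of freedom. Tests were two-sided, with Benjamini-Hochberg adjustment over all 10038 probe sets at 0.05. Precision is limited by having 3 arrays per landrace. The script was tested on simulated data. Tables and figures used Python 3.11.15 with pandas 2.3.3 and matplotlib 3.10.9.

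Gene names are those of the platform annotation, updated through the reference gene table of assembly SLM_r2.1, which 885 of 909 named probe sets matched. No genome build of the arrays was used, so no positions are given. The probe set with the highest mean stood for a gene. Gene lists were matched on symbols, and 23 matches were removed on their names. Named genes were the 12 highest and 12 lowest passing changes with all 3 arrays of 557 on 1 side of the mean of the others, up to 2 passing members and the brightest non-passing member of each list, the genes past all 8 landraces, and 2 unnamed probe sets in each direction. The comparison, the gene lists and this rule were chosen with earlier results of these data known. Replicate numbers were not used to pair the arrays. Same-numbered arrays of 557 and another landrace deviated with a mean correlation of -0.005, and 0 of 24 pairs were over 0.1. Over all landraces 20 of 108 same-numbered pairs and 46 of 216 differently numbered pairs were over 0.1. No shared deviation was detected, but with 3 arrays per landrace this cannot show that equal numbers have nothing in common.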

Additional observations from a re-analysis of the deposited data

How the results depend on the processing

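The 2347 calls became 542 with the arrays of each landrace averaged to 1 value before the fit, 1157 against 572 alone and 295 with array weights. They became 934 with values raised to the highest array background, 285 with the spiked controls as a covariate and 3858 with median centring. Leaving out 1 array gave 1292 to 2404, the lowest without replicate 1 of 557. Settings chosen after seeing the data gave 1254 for probe sets with a mean above the highest background and 554 for calls kept without replicate 1 and with raised values. The 130 calls against all 8 landraces became 27 with array weights, 38 with raised values, 0 with the covariate, 86 with the brighter side above background, and 108 to 330 without 1 array of 557 (313 without replicate 2 and 330 without replicate 3). A replicate block, which treats arrays of equal number as a set, gave 2263 and 120. The cause of these changes was not tested.

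Of the 48 passing named genes, 36 lost the threshold with the arrays of each landrace averaged to 1 value. Call or sign changed for 34 with the covariate, 33 with array weights and 22 against 572. It changed for 20 with raised values and 16 without replicate 1 of 557, and 2 genes kept the threshold in every setting. Signs turned against 572 for XTH3 (0.38), PDS (0.034), FRK2 (-0.16) and GABA-TP3 (0.61), and with the covariate for PDS (0.044), FRK2 (-0.44), GABA-TP3 (0.0050) and PSBR (0.29). As deposited, 1415 were higher and 1812 lower. With 3 arrays and 51.5% of probe sets at background on average, dim genes of 557 were measured poorly.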
